A study of Mus musculus with 11 samples.

Results

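Nucleotide excision repair and the gap filling that completes it were followed through 40 genes in RNA of mouse testis. The genes are named for their known roles in the pathway, in a set that was put together with earlier results of these data known, and all 40 were found among the 24411 genes of the count table. The samples were whole decapsulated testes of mice aged 20 weeks, in 3 genotypes: 4 WT samples, 4 Irp1-/- samples with a global knockout of Aco1, the gene of iron regulatory protein 1, and 3 Irp2-/- samples with a global knockout of Ireb2, the gene of iron regulatory protein 2. No mouse was treated. The Irp1-/- line was kept on a C57Bl/6J background with WT littermates as controls, while the origin of the Irp2-/- mice relative to these controls is not given in the sources used here. In both lines every cell of the animal carries the knockout. The labels do not say whether each sample came from a separate animal, so p-values measure the spread between these samples, which may be technical in part.

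Nucleotide excision repair cuts out a short stretch of a DNA strand around a lesion that distorts the helix, such as a UV photoproduct or a bulky adduct. In the global genome branch XPC with RAD23B finds the distortion, helped by the DDB1 and DDB2 ubiquitin ligase, and in the transcription-coupled branch a stalled RNA polymerase calls in CSA and CSB, the products of Ercc8 and Ercc6. The TFIIH complex then opens the helix, XPA and RPA verify and hold the site, 2 nucleases cut on either side, and DNA polymerases delta and epsilon fill the gap on PCNA before a ligase seals the nick. XPD (Ercc2) and the catalytic subunits of both polymerases (Pold1 and Pole) are iron-sulfur proteins. Many of these factors also serve transcription, replication or meiosis, and mice without Rad23b are known for male sterility.

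Between 15902473 and 22451417 reads were assigned to genes in each sample. The targeted genes moved as labelled. Aco1 was between 7.94 and 9.15 CPM (reads of a gene scaled to a common library size) in the Irp1-/- samples and between 9.78 and 12.9 CPM in WT, a fall by 0.45 on the log2 scale (SE 0.0977, edgeR adjusted p = 0.0158), so most of its reads remained. Ireb2 averaged 62.1 ± 0.803 CPM in Irp2-/- (SD, n = 3) and 139.5 ± 5.91 CPM in WT (SD, n = 4). The protamine genes Prm1 (2449 to 3750 CPM) and Prm2 (5683 to 6917 CPM), the meiotic genes Sycp1 (217 to 245 CPM) and Sycp3 (136 to 154 CPM), the acrosomal genes Acrv1 (174 to 210.2 CPM) and Acr (199 to 222 CPM), the spermatogonial genes Zbtb16 (3.42 to 5.29 CPM) and Gfra1 (9.05 to 12.9 CPM), the Sertoli cell genes Sox9 (15.8 to 20.8 CPM) and Wt1 (43.6 to 49.1 CPM), the Leydig cell genes Cyp11a1 (29.0 to 113 CPM) and Cyp17a1 (91.8 to 301 CPM), the myoid genes Acta2 (37.3 to 48.3 CPM) and Myh11 (30.3 to 41.5 CPM) and the macrophage genes Adgre1 (1.70 to 5.97 CPM) and Csf1r (5.71 to 8.71 CPM) were present in every sample. These are bulk samples, in which fewer cells of a type and less RNA per cell cannot be told apart.

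Steady-state levels of the pathway in WT testis spanned 69.9-fold when CPM were divided by the length of each gene's exons in kb. This division sets genes side by side, with the exons of all protein-coding transcripts of a gene merged. Which transcripts testis uses was not taken into account, so levels and ratios depend in part on this choice. The highest level was that of Rad23b at 109 ± 4.74 CPM per kb (SD, n = 4), followed by Ddb1, the adaptor of the ubiquitin ligase, at 78.0 ± 1.20 and the sliding clamp gene Pcna at 65 ± 1.52 CPM per kb. The damage sensor Xpc lay at 2.66 ± 0.118 CPM per kb, last but for Rfc5 at 1.57 ± 0.124 CPM per kb, and the median of the 40 genes was 11.7 CPM per kb. On this scale partners that act in 1 complex thus differed widely in RNA level. Rad23b was 41.1-fold above Xpc, Ddb1 22.1-fold above Ddb2, the clamp loader subunit Rfc2 24.0-fold above Rfc5, and the polymerase delta subunit Pold3 10.7-fold above the catalytic subunit Pold1. The ligase gene Lig3, with its partner Xrcc1 at 40.5 ± 0.933 CPM per kb, was 6.38-fold above Lig1. Of the exon length, 27.9% is shared with Rffl for Lig3, 26.7% with Acp2 for Ddb2 and 19.1% with Lat2 for Rfc2, each on the opposite strand. The strand setting of the counting is not named, so whether reads of such pairs were kept apart is not known. The scaffold genes Cul4a and Cul4b lay close together, with a ratio of 0.933. Rfc4 and Pold2 had the same mean of 20.1 CPM per kb, and the WT ranges of Xpa (3.08 to 4.0), Ddb2 (3.25 to 3.82) and Ercc6 (3.04 to 3.25) overlapped, so their order is not resolved.

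**Figure D1:**
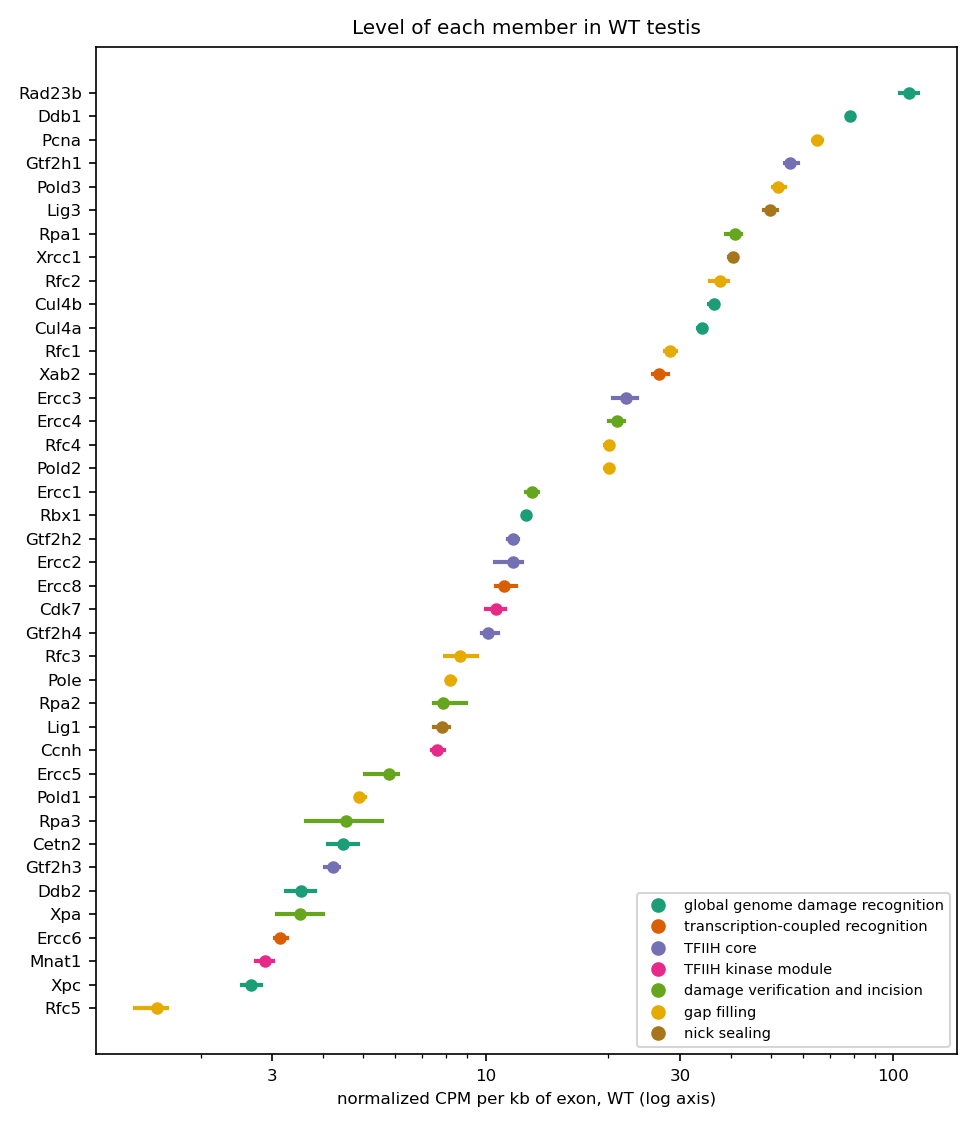
Normalized CPM per kb of exon for the 40 genes in the 4 WT samples, on a log axis. Points are means, bars run from the lowest to the highest sample, and colours mark the step of repair. Rad23b stands at 109 and Rfc5 at 1.57 CPM per kb, and the steps are mixed along the axis.

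The reads behind these levels set the precision. Rpa3 had the fewest, with 44 to 93 reads per sample, then Rfc5 with 72 to 121 and Xpa with 80 to 158. In the fit of Irp1-/- against WT the standard errors of the log2 fold changes ran from 0.0359 to 0.173 with a median of 0.0590. For 33 of the 40 genes the interval of ±1.96 standard errors lay within a 1.25-fold change in either direction, and it reached beyond for Cetn2, Ddb2, Ercc5, Rfc5, Rpa3, Xpa and Xpc.

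The comparison of Irp1-/- with WT asks what the loss of iron regulatory protein 1 does to the RNA of these repair genes. Of the 40 genes, 2 were higher and 2 were lower in Irp1-/- testis at an adjusted p under 0.05 in edgeR's quasi-likelihood test, where 0.581% of the 16002 genes tested were higher and 0.444% lower. Ercc5 fell and Cul4b rose, and Xpa (higher) and Rad23b (lower) are given apart below because they lie on chromosome 4 with Aco1 itself. Without Xpa and Rad23b, 1 of 38 genes was higher and 1 lower. At an unadjusted p under 0.05 there were 2 genes higher (6.69% of all genes) and 4 lower (5.44% of all genes), the 2 more being the damage sensor Xpc and the splicing and repair factor Xab2. The remaining differences were small, with 27 of the 40 log2 fold changes within 0.1 of 0. Most of them had the same sign. The log2 fold change was below 0 for 32 of 40 genes (80%), against 50.3% of all genes tested, with a median of -0.0443 for the 40 and -0.000787 for all. Summed CPM of the 40 genes ran from 3013 to 3026 in Irp1-/- and from 3073 to 3178 in WT. Without the 4 genes that passed the test the sums were 2474 to 2491 CPM in Irp1-/- and 2497 to 2593 CPM in WT, apart by a narrow gap. Those 4 genes were picked by the test on these same samples, and 2 of them (Cul4b and Xpa) were higher in Irp1-/-. Without Rad23b alone the sums overlapped (2643 to 2680 and 2663 to 2753 CPM), so the gap depended on which genes were left out. No test was made of these sums.

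**Figure D2:**
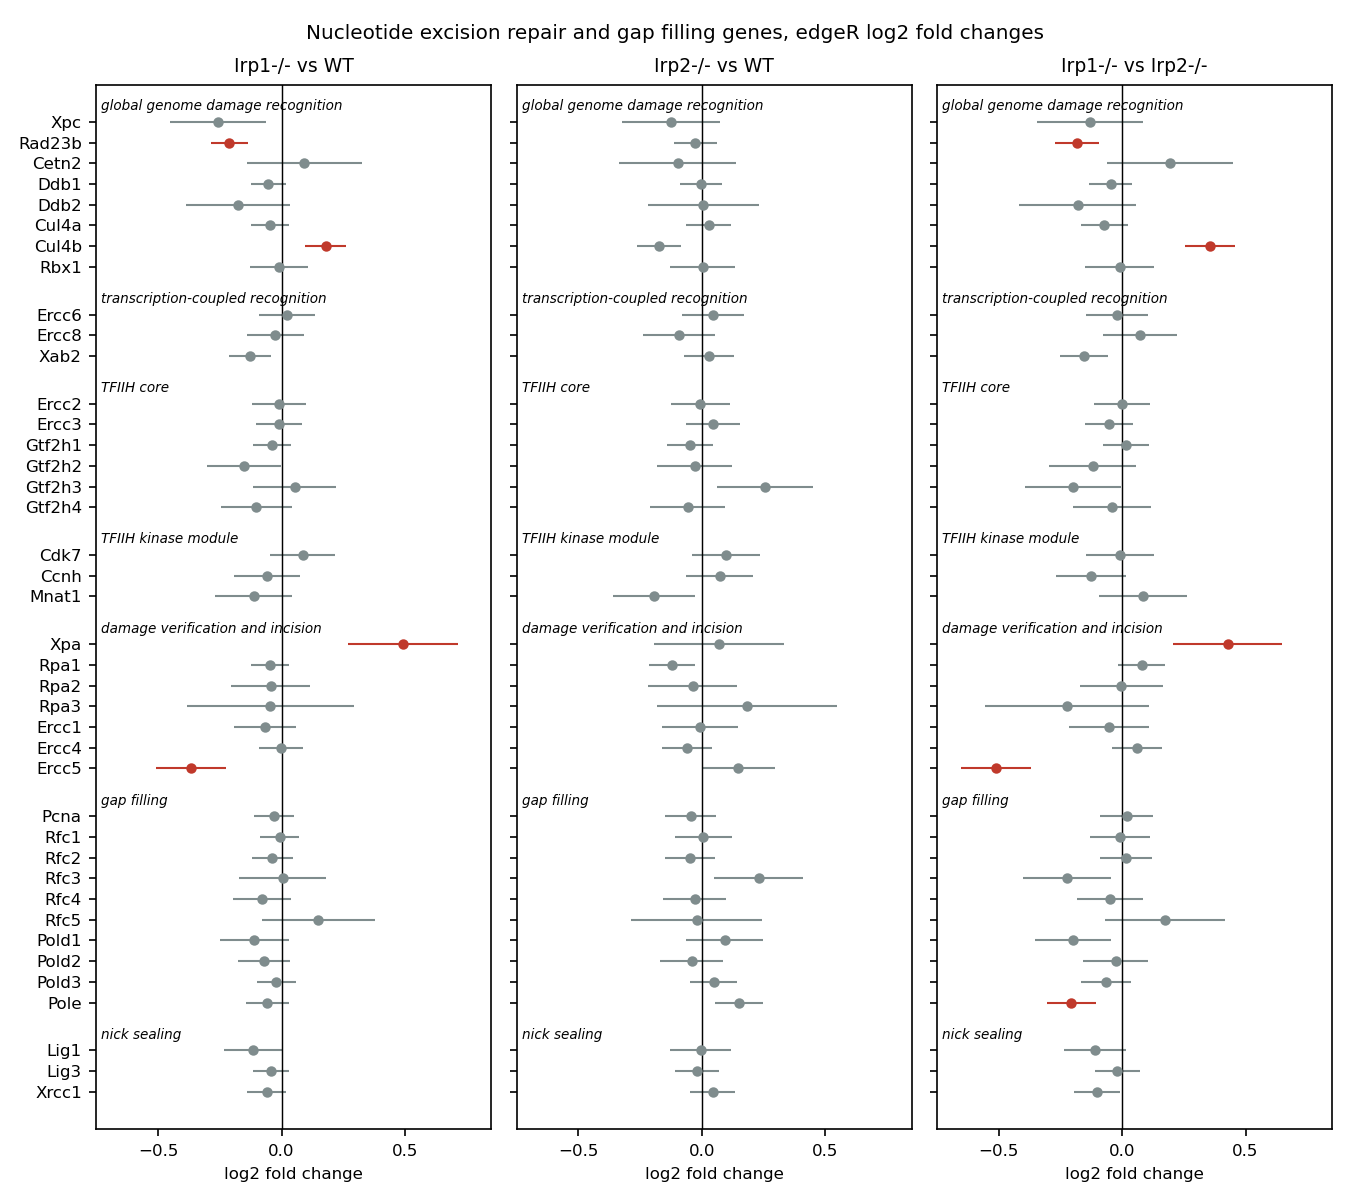
Log2 fold changes from edgeR for the 40 genes, grouped by repair step, in the 3 comparisons. Bars are ±1.96 standard errors and red marks an adjusted p under 0.05. Red points are Rad23b, Cul4b, Xpa and Ercc5 in Irp1-/- against WT, none in Irp2-/- against WT, and these 4 with Pole between the knockouts.

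Marker lists of testis cell types were read in the same fit, as counts with no test of a list. In Irp1-/- against WT the log2 fold change was below 0 for 9 of 10 spermatocyte markers (median -0.0807, none called, summed level 1248 to 1284 CPM against 1306 to 1359 CPM), for 7 of 9 spermatogonial markers tested (median -0.0365) and for 7 of 10 of elongating spermatids (median -0.0576), while 7 of 10 round spermatid markers were above 0 (median 0.0263). It was above 0 for 10 of 10 Sertoli cell markers (median 0.106, Clu called at 0.16, summed level 1330 to 1490 CPM against 1207 to 1290 CPM), for 9 of 10 Leydig cell markers (median 0.375, Fabp3 at 0.24 and Hsd17b3 at 0.37 called, summed level 1121 to 1319 CPM against 837 to 1183 CPM), for 8 of 10 myoid markers (median 0.0792) and for 6 of 10 macrophage markers (median 0.0167). The WT samples were uneven for some Leydig cell markers and even for others. Cyp11a1 was at 34.5 and 29.0 CPM in WT replicates 1 and 2 and at 84.3 and 75.3 CPM in WT replicates 3 and 4. It ran from 78.8 to 113 CPM in Irp1-/-. Insl3 ran from 484 to 519 CPM in WT. No marker was at 0 in any sample. The part of these differences in the values of the repair genes was not tested.

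Ercc5, which encodes XPG, the nuclease that cuts on the 3′ side of the lesion, had the lowest adjusted p outside chromosome 4. It measured 16.7, 18.7, 18.0 and 16.8 CPM in Irp1-/- replicates 1, 2, 6 and 7 and 19.7, 23.2, 23.6 and 23.9 CPM in WT replicates 1 to 4. The highest Irp1-/- sample lay below the lowest WT sample, which itself stood well under the other WT samples. The means were 17.5 ± 0.947 and 22.6 ± 1.94 CPM (SD, n = 4 each), a log2 fold change of -0.37 (SE 0.0723, edgeR adjusted p = 0.00822), or 77.6% of the WT level. The gene lies on chromosome 1 (mm10, chr1:44146948-44181260, plus strand), and none of the 5 tested neighbours on each side of it was called. Its partner nuclease on the 5′ side is XPF with ERCC1, and neither gene passed the test. Ercc4, the XPF gene, had a log2 fold change of -0.003 and Ercc1 of -0.066. The 3 RPA genes, whose products coat the single strand, lay near 0, at -0.046 for Rpa1, -0.044 for Rpa2 and -0.045 for Rpa3.

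Cul4b encodes 1 of the 2 cullin scaffolds of the ubiquitin ligase that DDB1 and DDB2 bring to damaged chromatin. It measured 166, 154, 148 and 145 CPM in Irp1-/- replicates 1, 2, 6 and 7 and 138, 131, 137 and 135 CPM in WT. All Irp1-/- samples lay above all WT samples, and Irp1-/- replicate 1 was the highest. The means were 153 ± 9.56 and 135.2 ± 2.82 CPM (SD, n = 4 each), a log2 fold change of 0.18 (SE 0.0429, edgeR adjusted p = 0.0348). The paralog Cul4a had a log2 fold change of -0.048 and the ring finger gene Rbx1 of -0.010. Cul4b lies on the X chromosome (chrX:38531616-38576196, minus strand), and X-linked genes lay higher as a class, with 74.4% of the 694 tested above 0 and a median of 0.10 against -0.00325 for the 15216 autosomal genes. Cetn2, the centrin that binds XPC and the only other X-linked gene of the set, had a log2 fold change of 0.093 (edgeR adjusted p = 0.824). The part of the chromosome-wide shift in the value of Cul4b was not tested.

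The windows before the start of the 4 genes called in this comparison are shown so that the base composition and motifs of the genes that rose and fell can be compared. Each runs over the 250 bases upstream of the RefSeq start (GRCm38.p6, the build of mm10), 5′ to 3′ along the gene's own strand. Capitals mark matches on either strand to the motifs searched: CCAAT (or ATTGG on the other strand), the NRF1 motif GCGCATGC, and the A-MYB motif AACNGNC.
Xpa (chr4:46196312-46196561, minus strand): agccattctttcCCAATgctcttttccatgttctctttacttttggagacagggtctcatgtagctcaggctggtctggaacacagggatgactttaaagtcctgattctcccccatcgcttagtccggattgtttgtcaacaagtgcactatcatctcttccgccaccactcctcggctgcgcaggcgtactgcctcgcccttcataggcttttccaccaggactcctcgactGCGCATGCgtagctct
Rad23b (chr4:55349792-55350041, plus strand): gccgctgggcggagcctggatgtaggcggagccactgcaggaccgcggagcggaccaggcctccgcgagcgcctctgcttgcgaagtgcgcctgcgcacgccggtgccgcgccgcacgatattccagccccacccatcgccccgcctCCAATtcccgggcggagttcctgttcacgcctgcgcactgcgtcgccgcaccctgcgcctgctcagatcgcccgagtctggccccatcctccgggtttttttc
Ercc5 (chr1:44147494-44147743, plus strand): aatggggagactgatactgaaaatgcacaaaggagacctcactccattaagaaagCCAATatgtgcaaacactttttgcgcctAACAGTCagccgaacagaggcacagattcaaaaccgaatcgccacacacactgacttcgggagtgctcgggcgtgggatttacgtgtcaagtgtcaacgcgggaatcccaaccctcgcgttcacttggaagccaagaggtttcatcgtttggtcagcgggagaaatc
Cul4b (chrX:38576197-38576446, minus strand): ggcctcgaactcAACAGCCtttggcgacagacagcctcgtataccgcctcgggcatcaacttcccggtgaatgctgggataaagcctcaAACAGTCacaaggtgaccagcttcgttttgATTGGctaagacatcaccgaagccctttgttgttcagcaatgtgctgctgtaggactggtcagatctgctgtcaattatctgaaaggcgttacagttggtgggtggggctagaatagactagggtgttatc

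The 4 windows differed in composition. Rad23b, the most abundant of them, had 70.8% G and C and 31 CpG dinucleotides, against 52% and 10 for Xpa, 50% and 14 for Ercc5 and 50.8% and 9 for Cul4b. The medians over the same 250 bases before the start in all 32851 windows were 52.4% and 6. The starts used for the windows of Ercc5 and Xpa lie inside the RefSeq gene bounds printed here, so their windows overlap those bounds. All 4 windows held CCAAT. Over windows of 250 bases before and 50 after the start, CCAAT was found for 19 of the 34 genes of the set that had a window (55.9%) and for 37.4% of all 32851 windows. The ETS motif CCGGAAGT was found for 8 genes (23.5%, against 3.89%), namely Cdk7, Ercc1, Gtf2h2, Pold3, Rfc3, Rfc4, Rpa2 and Rpa3. The NRF1 motif was found for 5 genes (14.7%, against 2.71%), the A-MYB motif for 14 (41.2%, against 32.8%), the E2F motifs TTTCGCGC or TTTGGCGC for Lig1 and Rfc3 (5.88%, against 0.813%), and the CRE TGACGTCA for Xab2 (2.94%, against 1.79%). These matches describe letters in a window and are not binding sites. A gene of the set was counted if any of its windows matched, while the share of all was per window. The sets were not balanced for base composition. Xpc, Ddb2, Ercc3, Ccnh, Rfc2 and Pole were not matched.

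Rad23b, whose product stabilises XPC and helps it find damage, lies 15.2 Mb from Aco1 (chr4:55350042-55392237, plus strand). It measured 346, 365, 364 and 370.4 CPM in Irp1-/- replicates 1, 2, 6 and 7 and 437, 425, 410.4 and 396 CPM in WT replicates 1 to 4. Every Irp1-/- sample lay below every WT sample. The means were 361 ± 10.7 and 417 ± 18.1 CPM (SD, n = 4 each), a log2 fold change of -0.21 (SE 0.0390, edgeR adjusted p = 0.00408), or 86.4% of the WT level. Its partner Xpc had a log2 fold change of -0.26 (edgeR adjusted p = 0.256), with 8.24, 7.03, 9.29 and 7.85 CPM in Irp1-/- and 9.17, 10.2, 9.65 and 9.66 CPM in WT. The Xpc groups overlapped by 1 sample.

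Xpa, whose product verifies the damage and places the nucleases, lies 6.03 Mb from Aco1 (chr4:46175220-46196344, minus strand). It measured 6.72, 7.12, 7.24 and 7.28 CPM in Irp1-/- and 4.97, 4.98, 5.75 and 4.41 CPM in WT. The Irp1-/- samples lay close together and above all WT samples. The means were 7.09 ± 0.258 and 5.03 ± 0.546 CPM (SD, n = 4 each), a log2 fold change of 0.49 (SE 0.113, edgeR adjusted p = 0.0258), the largest of the 40 in size. Its exons share 77 bases (5.37%) with those of Ncbp1 on the opposite strand, whose log2 fold change was 0.06 (edgeR adjusted p = 0.576), and the strand setting of the counting is not given in the sources used here. Within 20 Mb of Aco1, 14 of 216 genes tested were called (6.48%, with 6 higher and 8 lower), against 1.51% of the 797 genes farther away on chromosome 4. Aco1, Xpa and Rad23b themselves are among these 14. None of the 5 tested neighbours on each side of Xpa was called, while beside Rad23b the zinc finger gene Zfp462 was higher by 0.83 and Gm12505 was lower. Gm12505 had a log2 fold change of -6.22 (edgeR adjusted p = 7.8e-08), the lowest of all 16002 genes tested. In Irp2-/- against WT 0 of 219 genes in the same window were called in either direction. Rpa2, the third gene of the set on chromosome 4, lies 92.6 Mb from Aco1. A change set by the loss of IRP1 and one set by the DNA around the altered Aco1 allele cannot be told apart for Xpa and Rad23b.

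**Figure D3:**
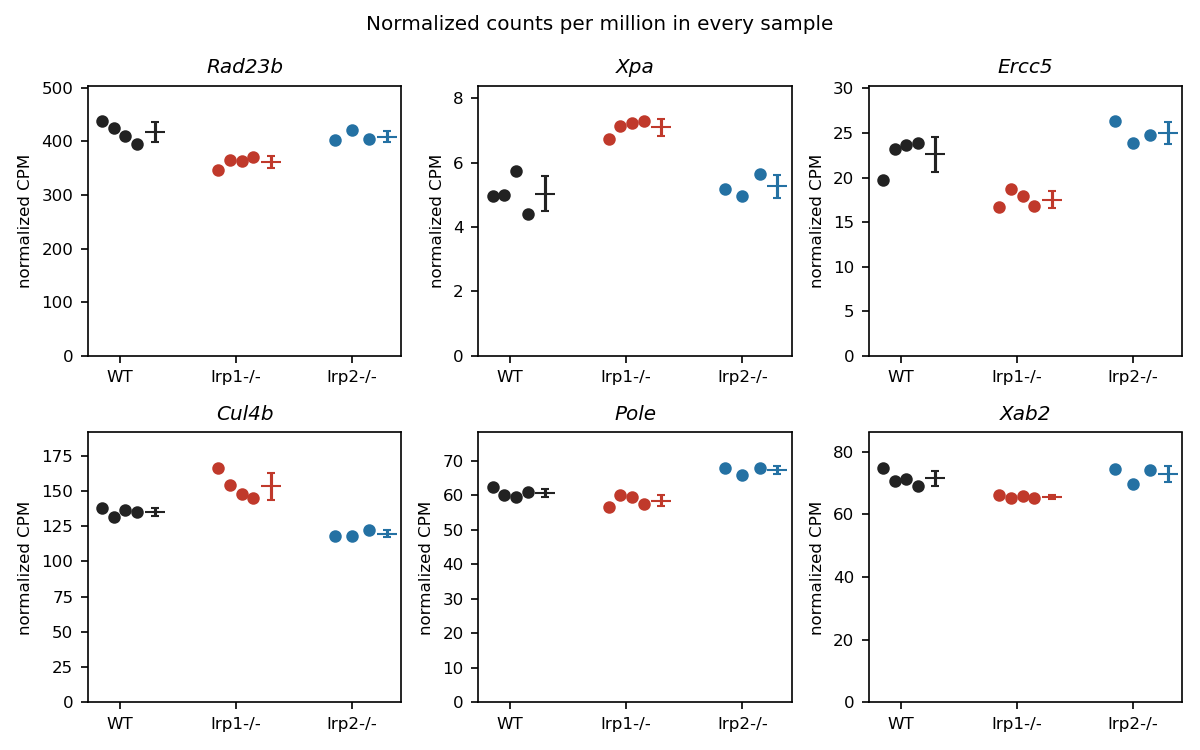
Normalized CPM of 6 repair genes in every sample, with axes starting at 0. Dots are samples in replicate order, and the mark beside them is the mean with the SD (4 WT, 4 Irp1-/- and 3 Irp2-/- samples). Irp1-/- samples lie below WT for Rad23b, Ercc5 and Xab2 and above WT for Xpa and Cul4b, and Irp2-/- samples lie above the others for Pole and below them for Cul4b.

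These 4 calls did not all hold when single samples were left out. Without Irp1-/- replicate 1 all 4 missed the threshold, with edgeR adjusted p-values of 0.0510 for Rad23b, 0.0551 for Ercc5, 0.0622 for Xpa and 0.249 for Cul4b. With each other sample left out in turn, Rad23b and Ercc5 were called every time. Xpa also missed it without Irp1-/- replicate 6 (0.0743) or WT replicate 2 (0.0711) or 4 (0.108), and Cul4b without Irp1-/- replicate 2 (0.0618) or WT replicate 2 (0.145), 3 (0.0794) or 4 (0.0820). The direction of all 4 was the same in each of these fits, and DESeq2 with all samples called the same 4 genes. Without Irp1-/- replicate 1 edgeR called 55 of all 16111 genes, where with all samples 93 were higher and 71 lower of 16002. The other fits that left out 1 sample called 84 to 216 genes. Xpa in Irp1-/- replicate 1, at 6.72 CPM, was the Irp1-/- value nearest WT. Whether the calls were lost through that sample's values or through fewer samples was not tested. A fit with the replicate number as a block raised the edgeR adjusted p to 0.111 for Ercc5 and 0.132 for Xpa. The numbers do not pair the samples. Only numbers 1 and 2 occur in both genotypes, so in that fit the other samples carry no information on genotype.

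**Figure D4:**
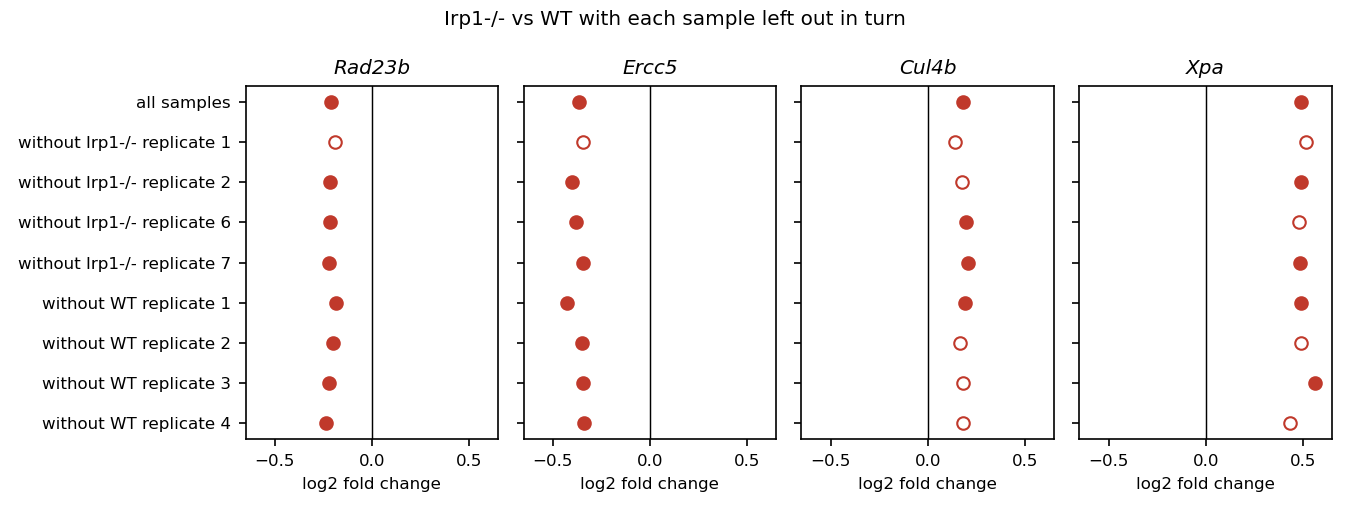
Log2 fold changes of the 4 called genes in Irp1-/- against WT with all samples and with each sample left out in turn. Filled points have an adjusted p under 0.05 and open points do not. All points keep their side of 0, and the points without Irp1-/- replicate 1 are open for all 4 genes.

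Groups that did not overlap between Irp1-/- and WT were seen for 3 higher genes (Xpa, Cul4b and Rfc5), where this held for 3.37% of all genes, and for 5 lower genes (Rad23b, Ercc5, Ddb1, Pold1 and Xab2), where it held for 3.22%. Xab2, which binds XPA and the stalled polymerase and is also a splicing factor, measured 66.2, 65.1, 65.8 and 65.1 CPM in Irp1-/- and 74.8, 70.6, 71.2 and 69.0 CPM in WT, a log2 fold change of -0.13 (SE 0.0432) that missed the threshold (edgeR adjusted p = 0.182). Its companions Ercc6 and Ercc8 had log2 fold changes of 0.022 and -0.025. Ddb1 measured 341, 327, 337 and 339 CPM in Irp1-/- and 346, 344, 346 and 356 CPM in WT, a difference of -0.054 on the log2 scale (edgeR adjusted p = 0.594). Its damage-binding partner Ddb2, near 8 CPM, had a log2 fold change of -0.18 (edgeR adjusted p = 0.547).

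None of the 6 TFIIH core genes and none of the 3 genes of its kinase module was called by edgeR or DESeq2 or had an unadjusted p under 0.05 in Irp1-/- against WT. Ercc2, the gene of the iron-sulfur helicase XPD, measured 43.4, 41.1, 42.9 and 38.3 CPM in Irp1-/-, 40.4, 41.9 and 42.1 CPM in Irp2-/- and 37.8, 41.7, 43.8 and 43.5 CPM in WT. The 3 groups overlapped fully. Its log2 fold change was -0.0098 in Irp1-/- and -0.0054 in Irp2-/- against WT, and 20.8% of its exon length is shared with Klc3 on the opposite strand. Ercc3, the gene of the other helicase XPB, had a log2 fold change of -0.011. The widest difference in the core was that of Gtf2h2, with 15.8, 18.8, 15.7 and 19.7 CPM in Irp1-/- and 19.3, 19.3, 18.8 and 19.9 CPM in WT (log2 fold change -0.15, edgeR adjusted p = 0.429). Irp1-/- replicate 7 lay inside the WT range and the other 3 below it. Gtf2h1 (-0.038), Gtf2h3 (0.053) and Gtf2h4 (-0.10) lay closer to 0. In the kinase module, which also phosphorylates RNA polymerase II, the assembly factor Mnat1 measured 14.7, 12.8, 15.8 and 14.0 CPM in Irp1-/- and 14.7, 15.6, 16.2 and 15.3 CPM in WT (-0.11, edgeR adjusted p = 0.621), the kinase gene Cdk7 had a log2 fold change of 0.085 and the cyclin gene Ccnh of -0.058.

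Gap filling showed no call by either tool among 10 genes, none had an unadjusted p under 0.05, and the 10 log2 fold changes ran from -0.11 to 0.15. Pold1, the iron-sulfur catalytic subunit of polymerase delta, measured 16, 15, 15.9 and 15.9 CPM in Irp1-/- and 16.8, 17.5, 16.7 and 16.6 CPM in WT, a log2 fold change of -0.11 (SE 0.0708, edgeR adjusted p = 0.576). The groups were separate but by less than 1 CPM. Rfc5, the least abundant gene of the set, measured 5.72, 5.45, 5.79 and 5.59 CPM in Irp1-/- and 5.31, 4.48, 5.34 and 5.13 CPM in WT (0.15, edgeR adjusted p = 0.661). Its exons overlap those of Wsb2 on the opposite strand over 15.4% of their length. Pcna had a log2 fold change of -0.029, Rfc1 of -0.0078, Rfc2 of -0.037, Rfc3 of 0.0044, Rfc4 of -0.080, Pold2 of -0.071, Pold3 of -0.021 and Pole of -0.058. For nick sealing, Lig1 measured 24.6, 27.2, 25 and 24.7 CPM in Irp1-/- and 26.3, 26.7, 28.3 and 28.6 CPM in WT (-0.12, edgeR adjusted p = 0.443), with 3 of 4 Irp1-/- samples under the lowest WT sample. Lig3 had a log2 fold change of -0.044 and Xrcc1 of -0.061.

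The comparison of Irp2-/- with WT puts the same question for iron regulatory protein 2. It shares the WT samples with the comparison above, so the values are given side by side and not as agreement. None of the 40 genes passed the threshold in edgeR, where 0.371% of 16154 genes were higher and 0.842% lower. At an unadjusted p under 0.05 there were 3 genes above 0 (Gtf2h3, Pole and Rfc3) and 3 below 0 (Cul4b, Mnat1 and Rpa1), where 4.69% of all genes were higher and 4.74% lower at that threshold, and DESeq2 called 1 gene, Cul4b, lower (adjusted p = 0.0218). The log2 fold change was below 0 for 22 of 40 genes (55%, against 48.7% of all genes), with a median of -0.00466 for the set and 0.00332 for all genes. The interval of ±1.96 standard errors lay within a 1.25-fold change for 33 of the 40.

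Cul4b measured 118, 118 and 122 CPM in Irp2-/- replicates 1 to 3, below the WT samples at 131 to 138 CPM, with a log2 fold change of -0.17 (SE 0.0455, edgeR adjusted p = 0.0618). X-linked genes as a whole had a median of -0.041 here, and all 38 that were called were lower. Pole, the catalytic subunit of polymerase epsilon, measured 67.9, 66 and 68 CPM in Irp2-/- and 62.3, 60.0, 59.6 and 61.1 CPM in WT, a log2 fold change of 0.15 (SE 0.0499, edgeR adjusted p = 0.199). All Irp2-/- samples lay above all WT samples. The same held for Rfc3, with 13.7, 12.8 and 13.4 CPM against 11.1, 11.4, 12.5 and 10.5 CPM (0.23, edgeR adjusted p = 0.360), and these were the 2 genes whose groups did not overlap on the higher side (4.57% of all genes). On the lower side (4.74% of all genes) they were Cul4b and Mnat1, the latter at 14.0, 14.1 and 12.4 CPM in Irp2-/- (-0.19, edgeR adjusted p = 0.444). Rad23b, at 402, 420.3 and 404 CPM, and Xpa, at 5.18, 4.96 and 5.65 CPM, lay within the WT range, with log2 fold changes of -0.026 and 0.069. Ercc5 measured 26.3, 23.8 and 24.8 CPM, with 2 samples above the WT range and 1 within it (0.15, edgeR adjusted p = 0.566). Among the marker lists 10 of 10 genes of elongating spermatids were below 0 (median -0.0814, none called), 9 of 10 of macrophages were above 0 (median 0.206, none called), and 1 marker was called, the round spermatid gene Cabs1, lower by -0.23. The part of these differences in the values of the repair genes was not tested.

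The knockouts were also compared directly, which tests whether they differ from each other. Of the 40 genes, 2 were higher in Irp1-/- than in Irp2-/- (Xpa and Cul4b) and 3 were lower (Ercc5, Rad23b and Pole), where 2.92% of 16281 genes were higher and 1.76% lower. Ercc5 had the lowest log2 fold change, -0.51 (SE 0.0722, edgeR adjusted p = 1.1e-04), or 70.2% of the Irp2-/- level, with all Irp1-/- samples at 18.7 CPM or less and all Irp2-/- samples at 23.8 CPM or more. Cul4b differed by 0.36 (SE 0.0521, edgeR adjusted p = 1.7e-04), with 145 CPM or more in Irp1-/- and 122 CPM or less in Irp2-/-, while X-linked genes had a median of 0.14 and 16.1% of 706 were called. These 2 genes were called with each sample left out in turn. Pole differed by -0.21 (SE 0.0503, edgeR adjusted p = 0.0178), with 56.6, 60.1, 59.5 and 57.6 CPM in Irp1-/-, while 2 of the 4 WT samples lay inside the Irp1-/- range. It missed the threshold without Irp1-/- replicate 1 (0.0840) or Irp2-/- replicate 3 (0.0646).

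The chromosome 4 genes also differed between the knockouts. Rad23b was lower in Irp1-/- by -0.18 on the log2 scale (SE 0.0452, edgeR adjusted p = 0.0202), and missed the threshold without Irp1-/- replicate 1 (0.114) or Irp2-/- replicate 2 (0.124). Xpa was higher by 0.43 (SE 0.113, edgeR adjusted p = 0.0315), but its adjusted p rose to between 0.0509 and 0.156 in 6 of the 7 fits that left out 1 sample and was 0.104 in DESeq2. Over the whole set 29 of 40 log2 fold changes were below 0 (72.5%, against 50.6% of all genes), with a median of -0.0436 against -0.00189 for all genes. Groups did not overlap for 2 higher genes (7.89% of all genes) and for 8 lower genes (7.25% of all genes), which were Ercc5, Pold1, Pole, Rfc3, Ddb1, Rad23b, Xrcc1 and Xab2. Among these Pold1 (19.4, 16.5 and 18.0 CPM in Irp2-/-) had a log2 fold change of -0.20 (edgeR adjusted p = 0.188), Rfc3 of -0.22 (edgeR adjusted p = 0.210), Xab2 of -0.15 (edgeR adjusted p = 0.0859) and Xrcc1 of -0.10 (edgeR adjusted p = 0.294). In the same comparison 10 of 10 Leydig cell markers were above 0, with Fabp3, Hsd3b1, Insl3 and Nr5a1 called, 9 of 10 Sertoli cell markers were above 0, with Amh, Fshr and Rhox5 called, and 9 of 10 spermatocyte markers were below 0, with none called. Of the other markers Cabs1 (0.20) and the myoid gene Actg2 (0.19) were called higher and the spermatogonial gene Sall4 (-0.58) and the macrophage gene Cd74 (-0.62) lower, and their part in these differences was not tested.

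Other excision repair genes were read for context. Of 26 further genes tied to nucleotide excision repair, all tested, edgeR called 0 in Irp1-/- against WT and 0 in Irp2-/- against WT. At an unadjusted p under 0.05 there were 0 higher and 1 lower in Irp1-/- and 2 higher and 0 lower in Irp2-/-. Below 0 were 17 and 15 of the 26, where 50.3% and 48.7% of all genes were. Between the knockouts 1 was called (1.76% of all genes were lower), the transcript elongation factor gene Tcea1. It was lower in Irp1-/- than in Irp2-/- by -0.31 (edgeR adjusted p = 0.00293). Tcea1 ran from 57.4 to 63.3 CPM in Irp1-/-, 67.5 to 80.1 CPM in Irp2-/- and 64.9 to 67.7 CPM in WT. Base excision repair, the route that removes small oxidised bases, had 19 of 20 genes tested. Of these edgeR called 0 in either comparison with WT. At an unadjusted p under 0.05, 1 was higher and 4 lower in Irp1-/-, where 6.69% and 5.44% of all genes were. In Irp2-/- 2 were higher and 1 lower, where 4.69% and 4.74% of all genes were. Below 0 were 14 of 19 in Irp1-/- (median -0.11) and 10 of 19 in Irp2-/- (median -0.0094), against 50.3% and 48.7% of all genes. Between the knockouts 2 were called, where 2.92% of all genes were higher and 1.76% lower. The flap nuclease gene Fen1 was lower in Irp1-/- than in Irp2-/- by -0.36 (edgeR adjusted p = 0.00850). Fen1 ran from 31.3 to 40.2 CPM in Irp1-/-, 41.4 to 48.8 CPM in Irp2-/- and 39.3 to 42.4 CPM in WT. The thymine DNA glycosylase gene Tdg was higher in Irp1-/- than in Irp2-/- by 1.12 (edgeR adjusted p = 0.00324). Tdg ran from 3.79 to 5.64 CPM in Irp1-/-, 1.37 to 2.96 CPM in Irp2-/- and 2.76 to 4.36 CPM in WT. DESeq2 called the same genes of both lists in each comparison.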

How the data were processed

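The authors sequenced polyA RNA from 11 testis samples with a stranded Illumina kit and deposited raw, unnormalized counts of reads per gene, which the nf-core RNA-seq workflow with its standard settings had aligned to mm10 and counted. The counting tool and its strand setting are not given in the sources used here. Irp1-/- replicate 6 bears an R in its column name where the rest bear an L, with no meaning stated.

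Here edgeR 4.0.16 (R 4.3.3) was run on the counts with filterByExpr, TMM factors and the robust quasi-likelihood test, in 3 comparisons that each held only their own samples, with Benjamini-Hochberg adjustment over all genes tested and a threshold of 0.05. Standard errors are the log2 fold change over the root of F. CPM are TMM-normalized over the 11 samples. Exon lengths, exon overlaps and strands come from GENCODE M21, and gene positions from RefSeq. DESeq2 1.42.0, other scalings and filters, 1 fit of all samples, a replicate block and fits without each sample were alternatives. The code was tested on simulated data. The 40 genes, the other lists and the rule for named genes (all 40, with values for those called, not overlapping, extreme in their step or iron-sulfur proteins) were chosen with earlier results of these data known. No 2 replicates agreed within sampling noise. Same-numbered samples did not deviate together (correlation from -0.0187 to 0.0908 over 16406 genes), so the fit has no block.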

Additional observations from a re-analysis of the deposited data

Results flagged for a closer look

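In 4 of 80 groups of 4 samples, 1 sample stood apart from the other 3 by more than Dixon's 95% limit, and chance alone gives about 1 in 20 such groups. Ercc5 was at 19.7 CPM in WT replicate 1 and between 23.2 and 23.9 CPM in the other WT samples. Rpa2 was at 16.2 CPM in WT replicate 2 against 13.5 to 13.7 CPM. In Irp1-/- replicate 2, Pold1 was at 15 CPM against 15.9 to 16 CPM, and Lig1 was at 27.2 CPM against 24.6 to 25 CPM in the other Irp1-/- samples.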

How the results depend on the processing

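No called value turned its direction under any alternative, while the median of the set in Irp2-/- against WT, close to 0, took either sign. With a replicate block, 1 gene was higher and 1 lower in Irp1-/- against WT, and the median of the set was -0.0717. Between the knockouts 1 was higher. Only numbers 1 and 2 occur in both genotypes of these comparisons, so the other samples carry no information on genotype in the block fits. The block raised the adjusted p to 0.111 for Ercc5 and 0.132 for Xpa against WT, and to 0.111 for Xpa and 0.0989 for Pole between the knockouts. DESeq2 called 1 gene lower in Irp2-/- against WT and 1 higher between the knockouts. With library totals alone the median was 0.0147 in Irp2-/- against WT and -0.0535 between the knockouts. The causes were not tested. With single samples left out, Irp1-/- against WT gave 0 to 2 genes higher, 0 to 2 lower, a median of -0.0573 to -0.0248 and 27 to 33 genes below 0, Irp2-/- against WT gave 0 and 0 with a median of -0.0120 to 0.00283 and 19 to 22 below 0, and the knockouts gave 1 to 2 higher, 1 to 3 lower, a median of -0.0482 to -0.0327 and 26 to 29 below 0. The count below 0 was added after the data were seen. Precision was limited by reads for Rpa3, Rfc5 and Xpa, and by 3 or 4 samples a group throughout.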
